A study of Mus musculus with 8 samples.

Results

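The erythropoietin receptor, the kinase and transcription factors it acts through, 4 genes that this signalling is known to induce or that restrain it, and the erythroid hormone erythroferrone were followed across erythroid stages and other blood cells. The genes were Epor, Jak2, Stat5a, Stat5b, Cish, Socs2, Socs3, Pim1 and Erfe, chosen by name. All 9 had a row in the table of 19669 genes. The cells came from erythroblastic islands, clusters of maturing red cells around a macrophage, isolated from male mice of the lupus-prone strain Sle1.Yaa. The labels give 2 bone marrow and 2 spleen libraries from anemic mice that carry a human TLR8 transgene (huTLR8tg), and 3 bone marrow libraries and 1 spleen library from control mice without anemia. All 8 libraries share the Sle1.Yaa background, so there was no group without it. The promoter that drives the transgene, the ages of the mice and the number of mice behind a library were not given in the sources used here.

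Erythropoietin binds a pair of receptor chains on erythroid progenitors and brings together the JAK2 kinases attached to them. JAK2 phosphorylates the receptor, and STAT5A and STAT5B bind there, are phosphorylated in turn and move to the nucleus. Their known targets include Cish and Socs2, whose products dampen the receptor, Pim1, which encodes a survival kinase, and Erfe, whose product is secreted by erythroblasts and lowers hepcidin in the liver, so that more iron reaches the blood. The response is best known in late progenitors and early erythroblasts, which need erythropoietin to survive.

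The table held 24942 cells and 248384567 unique molecular identifiers (UMIs, each standing for 1 captured transcript), with a median of 7554 UMIs per cell. The 10x Genomics v3.1 assay reads one end of each transcript. No column ties a cell to a library, so the cells were 1 pooled sample, and neither transgenic and control libraries nor spleen and marrow could be compared. The barcodes fall into 8 sorted runs of 447 to 6787 cells and 6195876 to 48442321 UMIs. These runs were treated as unnamed libraries, and the range over them stands for the spread between libraries. Of all cells, 1031 (4.13%) carried a barcode found in more than 1 run, with 1.34 to 15.7% in a run. Clustering without the described genes gave 10034 erythroid-like cells (40.2%), 11208 cells in 12 other named classes and 3700 cells in 6 unnamed clusters. Erythroid-like cells were 15.2 to 76.6% of a run.

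Erythroid-like cells were divided by the share of their UMIs that came from globin genes. There were 1124 progenitors under 2% globin, 1733 early erythroblasts at 2 to 20%, 3159 mid-stage erythroblasts at 20 to 60%, 2121 late erythroblasts at 60 to 80% and 1897 reticulocyte-like cells at 80% or more. All 19 erythroid markers had UMIs in each stage, and their summed level was 8378, 18610, 37720, 59180 and 72420 CPM in that order. In the other named classes the sum was 118 to 1832 CPM, with macrophage-like cells highest. These levels are in CPM, here UMIs of a gene per 1000000 UMIs that are not globin, because globin fills most of the later cells. Plain CPM, where used, has globin in the total. Neutrophil markers, which stand for RNA of other cells, also stood higher in later stages, at 873, 930, 1674, 3493 and 8394 CPM summed over 12 genes. Reticulocyte-like cells had a median of only 813 UMIs that were not globin.

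Epor, on chromosome 9 (21958897 to 21963506, minus strand, GRCm38), encodes the receptor chain. Its level was highest in mid-stage erythroblasts. It was 63.8 CPM in progenitors, 92.5 in early, 189 in mid-stage and 160 in late erythroblasts, and 21.5 in reticulocyte-like cells. The 95% Poisson interval in mid-stage cells was 183 to 195 CPM. The runs spread more widely than counting error, from 91.8 to 180 with a median of 160 CPM in late erythroblasts, and from 124 to 232 with a median of 183 in mid-stage ones. The levels of these neighbouring stages overlapped between runs, as did those of early erythroblasts (62.5 to 125 CPM) and progenitors (0 to 86.1).

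In finer steps of globin share, Epor stood at 64.7, 61.5 and 59.5 CPM at up to 1%, 1 to 2% and 2 to 5% globin, and then at 112 CPM at 10 to 20%. The highest level, 232 CPM, was at 40 to 50% globin, and at 70 to 80% globin it was 114. Receptor RNA was therefore already present before globin RNA accumulated and was highest in cells whose RNA was nearly balanced between globin and the rest. Over whole stages, Epor gave 0.544, 1.06, 1.22, 0.447 and 0.0211 UMIs per cell from progenitors to reticulocyte-like cells. An Epor UMI was found in 58.8% of mid-stage cells, which had a median of 9634 UMIs, and in 0.427% of B cell-like cells, which had a median of 4407. Thinned to 2000 UMIs per cell, the shares were 19.4% and 0.105%. The B cell-like share gives the level of background in cells not known for this receptor.

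The 250 bases before the Epor start are shown because RefSeq places there the letters AGATAA, a form of the motif that GATA factors bind. RefSeq promoter windows (GRCm38.p6, 250 bases before to 50 after a start) were found for 8 of the 9 genes, in 11 windows. The capitals mark the match, read on the opposite strand, 54 bases before the start. The stretch is chr9:21963577-21963826, minus strand.
Epor: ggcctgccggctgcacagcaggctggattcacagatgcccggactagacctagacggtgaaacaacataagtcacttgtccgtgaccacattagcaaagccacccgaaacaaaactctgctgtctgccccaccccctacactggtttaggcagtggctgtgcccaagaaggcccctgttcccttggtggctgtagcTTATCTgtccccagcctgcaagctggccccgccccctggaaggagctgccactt
AGATAA on either strand was in 11.2% of all 32851 RefSeq promoter windows, and in no other window of these genes. The match describes letters and shows no binding.

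**Figure D1:**
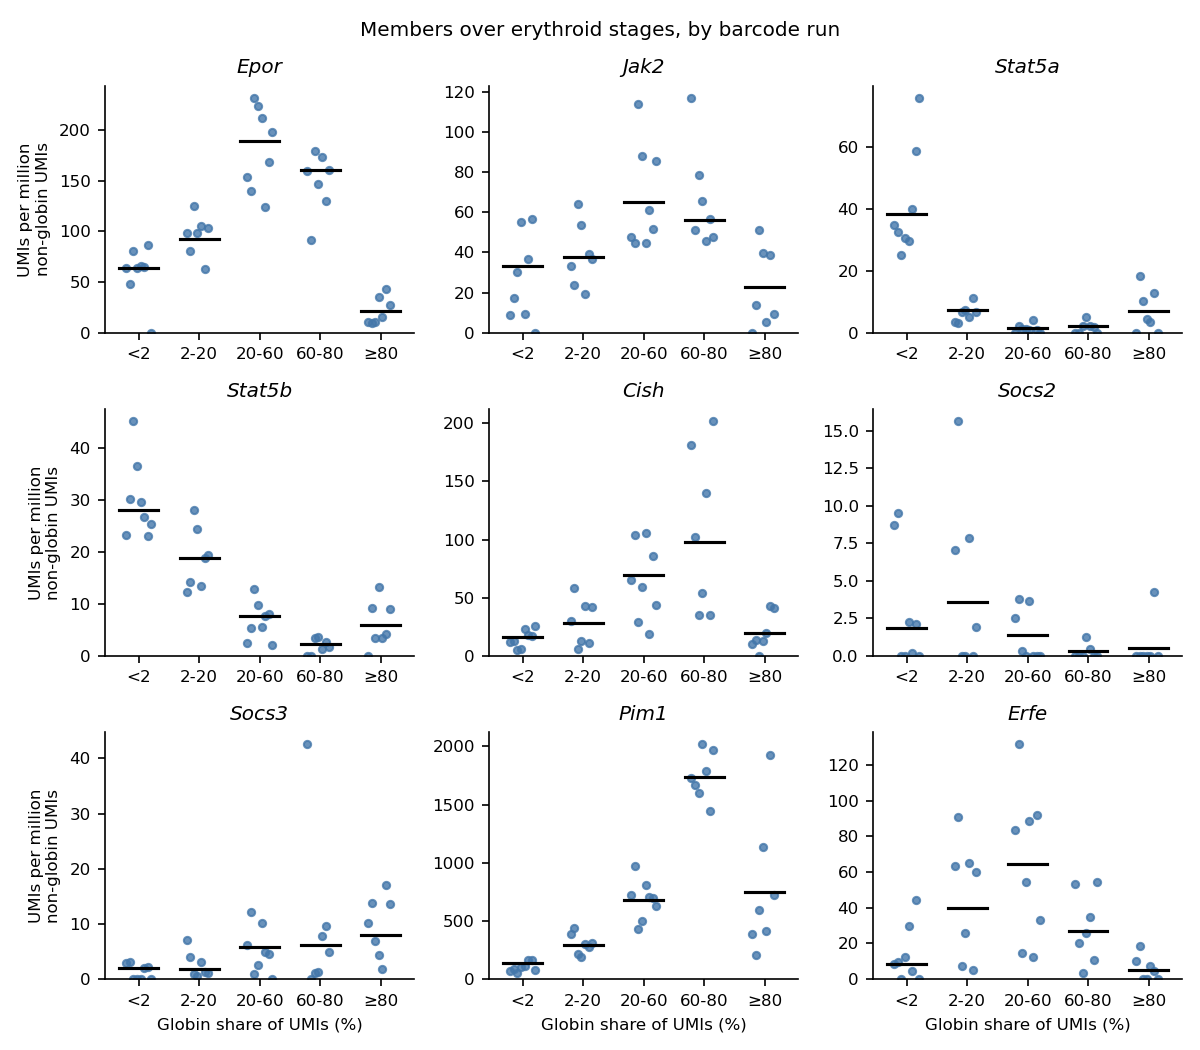
Level of each gene in CPM without globin (y axis) over the 5 erythroid stages (x axis), with a point per barcode run of at least 20 cells and a horizontal bar for the pooled level. Epor is highest in mid-stage erythroblasts at 189 CPM pooled, Pim1 in late erythroblasts at 1739 CPM, and Stat5a in progenitors at 38.5 CPM.

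The kinase gene and both STAT5 genes had different patterns over the stages. Jak2, on chromosome 19 (29251828 to 29313080, plus strand), encodes the receptor's kinase. It was 33.1, 37.7, 65.2, 56.4 and 22.5 CPM from progenitors to reticulocyte-like cells, with its highest pooled level in mid-stage erythroblasts like Epor. Its runs spanned 45.9 to 117 CPM in late cells and 44.6 to 114 in mid-stage ones, so these stages overlapped throughout.

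Stat5a and Stat5b lie beside each other on chromosome 11 (100859351 to 100885169, plus strand, and 100780731 to 100850724, minus strand) and encode closely similar proteins. Reads that fit both genes went as the authors' counting placed them. Stat5a was 38.5 CPM in progenitors, 7.18 in early, 1.42 in mid-stage and 2.19 in late erythroblasts, and 6.98 in reticulocyte-like cells. The runs did not overlap between early erythroblasts, at 3.03 to 11.3 CPM, and progenitors, at 25.1 to 76.1. Stat5b stood at 28.1, 18.9, 7.71, 2.19 and 5.90 CPM over the same stages, and its runs in early erythroblasts (12.3 to 28.1 CPM) overlapped those of progenitors (23.1 to 45.3). Among erythroid stages both transcription factor RNAs were thus highest where globin was lowest. By level without globin, the receptor and its kinase were instead highest in mid-stage cells. The slightly higher values in reticulocyte-like than in late cells rest on 13 and 11 UMIs of Stat5a and Stat5b, with 0 in the lowest run of each. They moved with the neutrophil markers, and the part of these in the result was not tested.

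Between neighbouring stages, a gene was called higher or lower when its level differed at least 2-fold after 10 was added to both levels, with the same sign in every run that had 20 cells of both stages. It also had to reach 20 CPM in either stage. No test was made, because the labels name none of the runs and the cells count as 1 pooled sample. In early erythroblasts over progenitors, 7 of the 9 genes reached 20 CPM, and Erfe and Pim1 were higher while Stat5a was lower. Erfe and Cish reached 20 CPM in early erythroblasts only, and Stat5a and Stat5b in progenitors only. The direction of their pooled difference thus followed from the level minimum. Of 5641 genes measured there, 5.67% were higher and 7.75% lower by the same rule. Stat5a had a log2 difference of -1.50, lower in 7 of 7 runs (-2.05 to -1.08). Epor (log2 0.47), Cish (0.55), Jak2 (0.15) and Stat5b (-0.40) were under 2-fold, and Socs2 and Socs3 were under the level minimum. The median over all genes measured was -0.10. Pim1 had a log2 difference of 1.03, higher in 7 of 7 runs (0.74 to 2.25), and was under 2-fold without run 1 (0.996), without run 2 (0.88) and with repeated barcodes left out (0.98).

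Cish, on chromosome 9 (107296026 to 107302784, plus strand), encodes CIS, which binds the phosphorylated receptor and blocks STAT5. Its pooled level was highest in late erythroblasts, a stage later than that of Epor. It was 16.1, 28.3, 69.4, 97.6 and 19.9 CPM from progenitors to reticulocyte-like cells. The runs reached from 34.8 to 202 CPM with a median of 102 in late erythroblasts and from 18.8 to 106 with a median of 62.0 in mid-stage ones, so both stages overlapped. On plain CPM the order of these stages turned, with 29.9 in late and 41.2 in mid-stage erythroblasts. Per cell, Cish gave 0.273 UMIs in late and 0.447 in mid-stage erythroblasts.

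Pim1, on chromosome 17 (29490753 to 29496112, plus strand), encodes a survival kinase and was highest in late erythroblasts. It was 138, 293, 681, 1739 and 746 CPM from progenitors to reticulocyte-like cells. The progenitor level was 95.9 CPM without run 6, which held 398 of the 1124 progenitors and 1009 of their 1324 Pim1 UMIs. The runs did not overlap between early erythroblasts (186 to 438 CPM) and progenitors (55.3 to 162), or between late (1445 to 2022) and mid-stage erythroblasts (433 to 972). In reticulocyte-like cells they spread from 206 to 1928 CPM, so the level there depended on the run. Per cell, Pim1 gave 1.18, 3.36, 4.39, 4.86 and 0.733 UMIs, so UMIs per cell in late and mid-stage erythroblasts were closer than the levels. On plain CPM, Pim1 stood at 533 in late and 404 in mid-stage erythroblasts. In finer steps the highest level was 2351 CPM at 70 to 80% globin.

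In mid-stage over early erythroblasts, 5 of the 9 genes were measured, and Cish and Pim1 were higher by the 2-fold rule, where 6.28% of 5095 genes were higher and 6.3% lower. The log2 difference was 1.05 for Cish, higher in 7 of 7 runs (0.42 to 1.61), and 1.19 for Pim1, higher in 7 of 7 runs (0.90 to 1.39). Epor (0.96), Jak2 (0.66) and Erfe (0.57) were also higher in 7 of 7 runs but under 2-fold. The median over all genes was -0.04. Cish missed the rule without run 5, at 0.89, and without run 6, at 0.98, and Epor met it without run 7, at 1.03. On plain CPM both genes were under 2-fold, at 0.54 for Cish and 0.61 for Pim1.

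In late over mid-stage erythroblasts, Pim1 was higher and Erfe lower among 5 genes measured, where 6.55% of 4614 genes were higher and 17.1% lower. Pim1 had a log2 difference of 1.34, higher in 7 of 7 runs with 0.78 in the lowest, which was 0.39 on plain CPM. Cish had 0.44, higher in 5 of 7 runs, and Epor -0.23, higher in 2 of 7 runs. The median over all genes was -0.44, and relative to it Epor stood at 0.21.

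Socs2, on chromosome 10 (95385362 to 95417180, minus strand), and Socs3, on chromosome 11 (117966079 to 117970047, minus strand), encode suppressors of cytokine signalling. Neither reached 20 CPM in any erythroid stage. Socs2 stood between 0.338 CPM in late and 3.57 CPM in early erythroblasts (2.23 without run 2), where 71 UMIs were counted and the runs spanned 0 to 15.7 CPM. Socs3 was 1.98, 1.91, 5.84, 6.25 and 8.05 CPM from progenitors to reticulocyte-like cells.

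The letters TTCNNNGAA, which STAT proteins bind as a pair, were searched on both strands of the promoter windows and were in 8.3% of all windows. Among the genes described, 1 Cish window held 2 matches and 1 Socs3 window held 1, and no match was found in the windows of Epor, Erfe, Pim1, Jak2, Stat5a or Stat5b. Socs2 had no window and was not searched. Only 0.457% of all windows held 2 or more. The stretches are shown because both genes encode feedback inhibitors known as STAT targets. They are chr9:107296654-107296683, plus strand, and chr11:117969501-117969530, minus strand, with the matches in capitals.
Cish: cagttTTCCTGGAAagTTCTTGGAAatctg
Socs3: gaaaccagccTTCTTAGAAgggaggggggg
The Cish matches begin at bases 1 and 12 after the RefSeq start, and the Socs3 match begins 154 bases before it. Both stretches lie inside the gene bounds given above, which start further upstream than the RefSeq starts used here. No match says only that these letters are not in the windows read.

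Erfe, on chromosome 1 (91366430 to 91374217, plus strand), was highest in mid-stage erythroblasts and at or near 0 outside the erythroid cells. It was 8.55 CPM in progenitors (82 UMIs), 40.04 in early, 64.3 in mid-stage and 26.8 in late erythroblasts, and 5.37 in reticulocyte-like cells (10 UMIs). The progenitor runs spanned 0 to 44.1 CPM, and without run 6, which held 398 of the progenitors and 29 of their Erfe UMIs, the level there was 16.1 CPM. In early over progenitor cells its log2 difference was 1.43, higher in 7 of 7 runs (0.06 to 2.37). In late over mid-stage erythroblasts it was -1.01, lower in 7 of 7 runs (-2.22 to -0.12). That call is close to the threshold and was not met without run 2 (-0.91) or relative to the median gene (-0.58).

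In finer steps Erfe passed through 6.51, 14.3, 22.9, 30.6 and 51.9 CPM up to 10 to 20% globin and stayed between 61.4 and 70.6 CPM from 20 to 60% globin. It then stood at 39.7 CPM at 60 to 70% and 6.53 at 70 to 80% globin. By level without globin, Erfe RNA was thus spread over a broad plateau. The step down came at a lower globin share than that of Pim1, whose level was highest at 70 to 80%. Counted per cell there was no plateau. Erfe UMIs per cell were 0.692 at 10 to 20% globin, their highest, 0.648 at 20 to 30% and 0.279 at 50 to 60%. Per cell, Erfe gave 0.414 UMIs in mid-stage and 0.460 in early erythroblasts. An Erfe UMI was found in 22.4% of mid-stage cells, and in 0.171% of B cell-like cells.

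**Figure D2:**
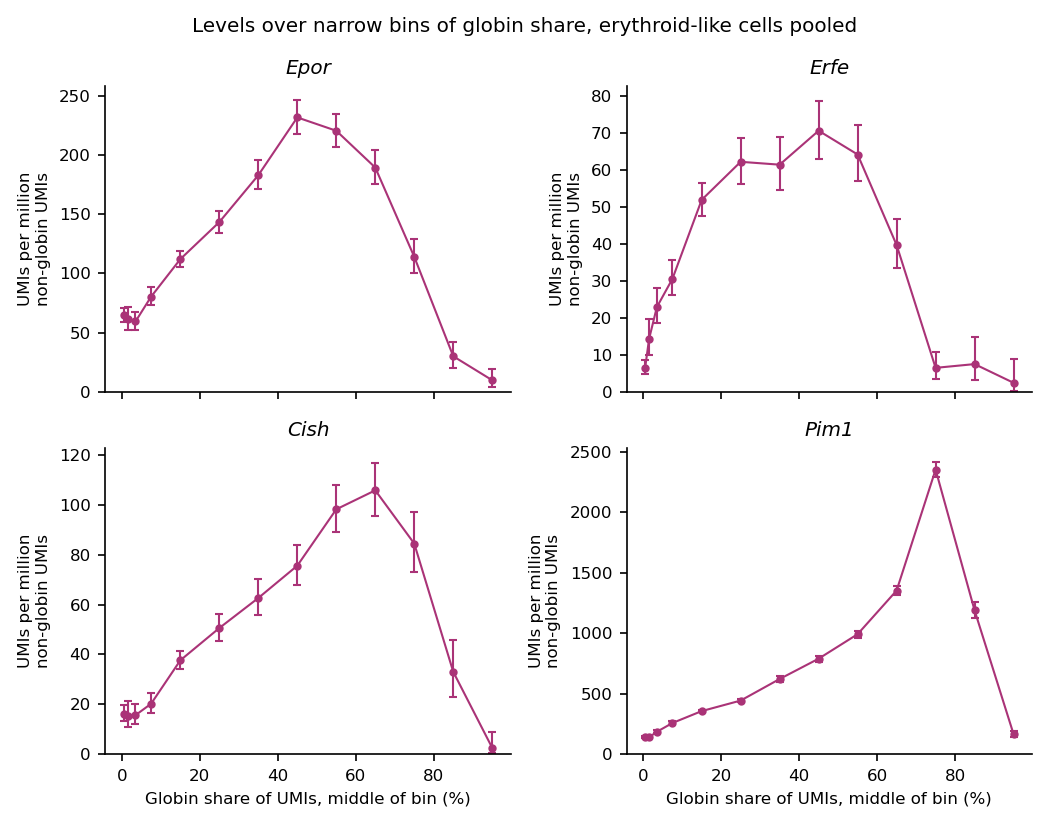
Level in CPM without globin (y axis) against the globin share of UMIs in percent (x axis) for erythroid-like cells in 13 steps, with 95% Poisson intervals. Epor is highest at 40 to 50% globin at 232 CPM, Erfe forms a plateau of 61.4 to 70.6 CPM from 20 to 60%, and Pim1 is highest at 70 to 80%.

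The runs differed widely in Erfe and Cish. In mid-stage erythroblasts Erfe was 83.8, 132, 14.8, 54.7, 88.8, 12.2, 91.8 and 33.3 CPM in runs 1 to 8. Cish was 65.1, 104, 29.3, 58.9, 106, 18.8, 85.8 and 43.8 CPM in the same order. The 4 runs highest in Erfe, which were runs 2, 7, 5 and 1, were also the 4 highest in Cish, and runs 4, 8, 3 and 6 followed in the same order for both genes. Epor ran otherwise, at 154, 140, 232, 224, 212, 124, 168 and 198 CPM in runs 1 to 8, with runs 3 and 4 highest. Jak2 was highest in runs 3, 4 and 8, at 114, 87.9 and 85.4 CPM, and lay between 44.6 and 61.2 in the others. Run 3 was thus the highest in Epor and next to the lowest in Erfe and Cish, while run 5 was among the 3 highest in Epor, Erfe and Cish alike.

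Early erythroblasts of runs 1 to 7 held Erfe at 63.4, 90.9, 7.13, 25.6, 65.2, 5.27 and 60.1 CPM, so runs 3 and 6 were again the lowest. Run 8 had too few early cells. The median globin share of the mid-stage cells was 34.1% in run 1 and 39.5 to 46.6% in the other runs, and their median UMI count was 5029 in run 6 and 9837 to 22080 in the others. Within 40 to 60% globin, Erfe was 43.5, 125, 15.4, 61.1, 95.6, 17.6, 110 and 42.5 CPM in runs 1 to 8. There runs 2, 7, 5 and 4 were the highest in Erfe and also in Cish, and runs 3 and 6 the lowest in both. Epor there was 198, 198, 273, 253, 257, 140, 191 and 234 CPM, with run 3 first and run 5 second. Run 1 and run 8 had only 70 and 37 mid-stage cells. The part of depth in these differences was not tested, and since no run can be tied to a tissue or genotype, neither can the differences.

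**Figure D3:**
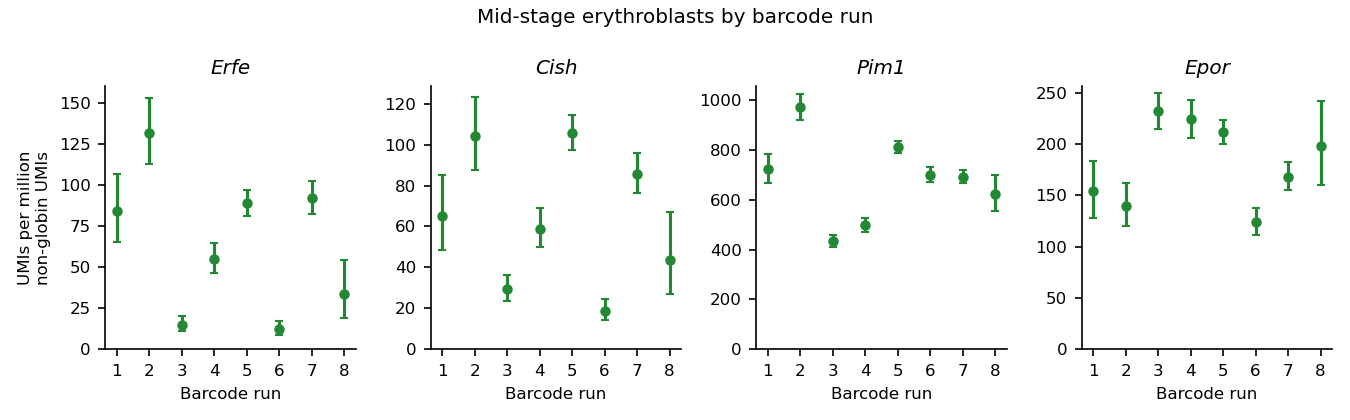
Level in mid-stage erythroblasts, in CPM without globin (y axis), in each of the 8 barcode runs (x axis), with 95% Poisson intervals. Erfe spans 12.2 to 132 CPM and Cish 18.8 to 106 CPM, with runs 3 and 6 lowest in both, while Epor is highest in run 3.

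Erythroid cells with 2 to 60% globin were set against the other named classes, where 25.3% of 6250 genes measured were higher in erythroid cells and 22.2% lower, with a median log2 difference of 0.32. The other classes were summed by UMIs, so they did not weigh alike. Neutrophil-like cells held 43427654 UMIs without globin and granulocyte-monocyte progenitor-like cells 32530605. Monocyte-like cells came next with 12465652. Values in the others thus stand mostly for the first 2 of these classes. Of 7 genes measured, Epor and Erfe were higher and Socs3 was lower. Epor, Erfe and Cish reached 20 CPM in erythroid cells only, and Socs3 and Stat5b in the other classes only. The direction of their pooled difference thus followed from the level minimum. Epor stood at 141 CPM in erythroid cells and 2.64 in the other classes, a log2 difference of 3.58, higher in 8 of 8 runs (2.46 to 4.21). Erfe stood at 52.3 CPM in erythroid cells and 0.310 in the others, from 40 UMIs, a log2 difference of 2.60, higher in 8 of 8 runs (0.78 to 3.45). Cish, at 49.1 CPM in erythroid cells and 8.43 in the others, had a log2 difference of 1.68 but was higher in only 7 of 8 runs. The exception was run 6 (-0.35), where T and NK cell-like cells held 264 CPM of Cish, and without that run Cish was higher by the rule (2.09). Jak2 (0.63), Pim1 (0.52) and Stat5b (-0.74) were under 2-fold.

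Epor had a low level in 3 other classes. It was 33.3 CPM in macrophage-like cells (26.0 to 42.0 by counting error), 31.2 in megakaryocyte-like cells and 24.9 in endothelial and stromal cell-like cells, the last from 9 UMIs in 61 cells and 43.6 CPM without run 6. It was 5.64 CPM in stem and multipotent progenitor-like cells and at most 2.16 in each other named class. In macrophage-like cells, which had the highest erythroid marker sum of the other classes, Epor was 34.1 CPM in cells under 2% globin and 31.0 in those with more. The megakaryocyte-like value spread from 0 to 135 CPM over 6 runs, the highest from 16 UMIs in 30 cells. Erfe was at most 1.87 CPM in any other named class, in macrophage-like cells from 4 UMIs, and 1.16 there without run 5. It had 0 UMIs in basophil and mast cell-like, endothelial and stromal cell-like, megakaryocyte-like, plasma cell-like and plasmacytoid dendritic cell-like cells, which allows up to 3.08, 8.31, 0.774, 0.382 and 0.649 CPM in that order (3 UMIs each, counting error only).

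Jak2 was not an erythroid gene by level. It was 65.2 CPM at its highest in an erythroid stage, against 180 in basophil and mast cell-like, 134 in megakaryocyte-like and 80.3 in endothelial and stromal cell-like cells. The lowest level was 9.16 CPM in plasma cell-like cells. Without run 6, Jak2 was 76.2 CPM in megakaryocyte-like cells and 17.4 in endothelial and stromal cell-like cells, where 2 UMIs in 23 cells were left. Stat5a was 38.5 CPM in erythroid progenitors, against 53.6 in T and NK cell-like and 52.0 in stem and multipotent progenitor-like cells. Stat5b was 28.1 CPM in erythroid progenitors, against 75.0 in basophil and mast cell-like cells and 48.6 in T and NK cell-like cells. Erythroblasts from mid-stage on were thus at the low end of all classes for both STAT5 genes.

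Cish was also found in other classes, among them lymphocytes, where it is known to answer interleukin signals. T and NK cell-like cells held 95.5 CPM, close to late erythroblasts, with runs from 52.1 to 264 that overlapped the runs of late erythroblasts. B cell-like cells held 2.08 CPM. Cish was 44.3 CPM in endothelial and stromal cell-like cells (8.71 without run 6) and 42.1 in basophil and mast cell-like cells. Megakaryocyte-like cells held 24.3 CPM and stem and multipotent progenitor-like cells 19.6, or 10.2 and 9.40 without run 6. Pim1 was found in every class, at 975 CPM in macrophage-like, 793 in T and NK cell-like and 758 in plasmacytoid dendritic cell-like cells, the last 394 without run 6. Its lowest level was 93.4 CPM in granulocyte-monocyte progenitor-like cells. Socs3 was 565 CPM in endothelial and stromal cell-like, 157 in T and NK cell-like and 137 in monocyte-like cells. The endothelial and stromal value rested on run 6, which held 38 of the 61 cells and 182 of the 204 UMIs, and was 192 CPM without it. Socs3 stood at 3.90 CPM in erythroid cells and 36.1 in the other classes, a log2 difference of -1.73, lower in 8 of 8 runs (-2.32 to -1.07). Socs2 was 114 CPM in endothelial and stromal cell-like cells, from 41 UMIs, 29.8 in T and NK cell-like and 24.6 in B cell-like cells, and had 0 UMIs in 3723 neutrophil-like cells, which allows up to 0.0691 CPM.

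**Figure D4:**
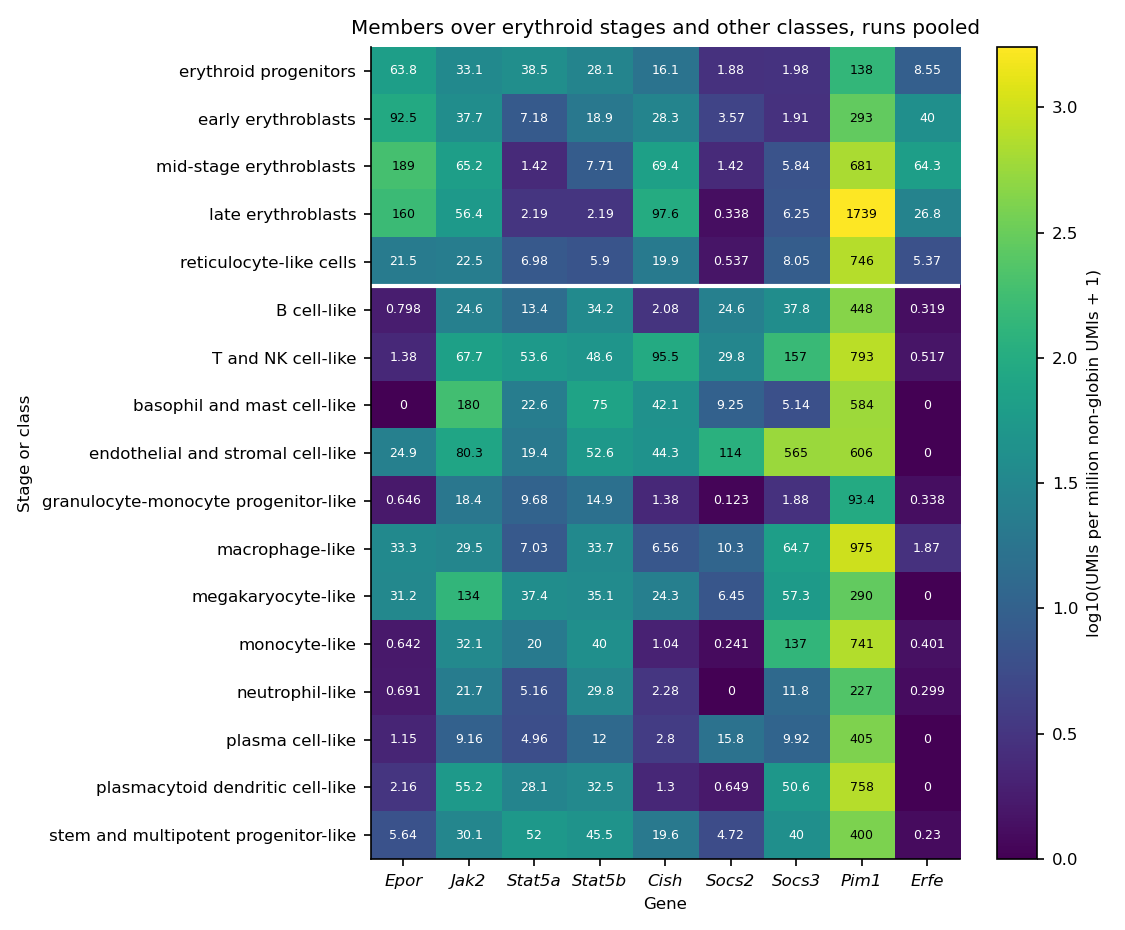
Level of the 9 genes (columns) in the 5 erythroid stages and 12 other named classes (rows), given in CPM without globin in each cell and by colour as log10(CPM + 1), runs pooled. Epor and Erfe are highest in erythroid rows, Socs3 is highest in endothelial and stromal cell-like cells at 565 CPM, and Pim1 has a value of at least 93.4 CPM in every class.

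Other genes of the pathway were taken from lists chosen by role. A listed gene that reached 20 CPM on only 1 side of a comparison had its pooled direction set by the level minimum. Such genes enter the counts and medians of the lists. Of 20 receptor-proximal transducers and regulators, 16 were measured in erythroid cells over the other classes, with 2 higher, 8 lower and a median of -0.999 against 0.32 over all genes. Of all genes measured, 25.3% were higher and 22.2% lower. The lower ones with the largest differences were Ptpn6, which encodes the phosphatase SHP-1 that shuts off JAK2, at 8.99 CPM in erythroid cells and 180 in the others (log2 -3.32), the kinase Lyn (-3.03), the exchange factor Vav1 (-2.58) and the lipid kinase subunit Pik3cd (-2.44). The 2 higher genes were Foxo3, a transcription factor held out of the nucleus by AKT, at 149 CPM in erythroid cells and 19.6 in the others, and Tfr2, which binds the erythropoietin receptor, at 30.6 CPM in erythroid cells and 3.71 in the others. Each of these 6 genes had the same sign in 8 of 8 runs. Ptpn6 reached 20 CPM in the other classes only, and Foxo3 and Tfr2 in erythroid cells only.

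In late over mid-stage erythroblasts 10 genes of the same list were measured, and 2 were higher and 0 lower, where 6.55% of all genes were higher and 17.1% lower. Pik3r1, a regulatory subunit of the lipid kinase PI3K, stood at 402 CPM in late and 146 in mid-stage erythroblasts (log2 1.40), and Foxo3 at 503 in late and 206 in mid-stage ones (1.25). Akt1 (-0.85) and Tfr2 (-0.83) were under 2-fold. In early over progenitor cells 12 were measured, and 1, Ptpn6, was lower (-1.17), where 7.75% of all genes were. In mid-stage over early erythroblasts 9 were measured, and 2, Foxo3 and Pik3r1, were higher, where 6.28% of all genes were.

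Of 16 STAT5 and erythropoietin response genes, 11 were measured in erythroid cells over the other classes, with 4 higher and 5 lower and a median of 0.30, where 25.3% of all genes were higher and 22.2% lower. Tfrc, the transferrin receptor that takes up iron, was 1475 CPM in erythroid cells and 48.5 in the others (log2 4.67). The others higher were Ccnd3 (1.88), Trib3 (1.58) and Bcl2l1 (1.55). The lower ones included Osm (-3.13), Id1 (-2.82) and Serpina3g (-2.37). Bcl2l1, whose product protects late erythroblasts from death, was 6.99, 23.4, 110, 1046 and 2070 CPM from progenitors to reticulocyte-like cells. In late over mid-stage erythroblasts 7 of the list were measured, and Bcl2l1 was higher (3.14), Ccnd3 was lower (-2.45, at 104 CPM in late and 612 in mid-stage cells), and Irs2 (0.51) and Ddit4 (-0.30) were under 2-fold. Of all genes measured there, 6.55% were higher and 17.1% lower. Bcl2l1 and Pim1, both survival genes, thus had higher levels in late than in mid-stage erythroblasts, unlike Epor. In early over progenitor cells 7 were measured, and Tfrc and Ccnd3 were higher and Ccnd2 lower, where 5.67% of all genes were higher and 7.75% lower. In mid-stage over early erythroblasts 7 were measured, with 1 higher and 0 lower, where 6.28% of all genes were higher and 6.3% lower.

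**Figure D5:**
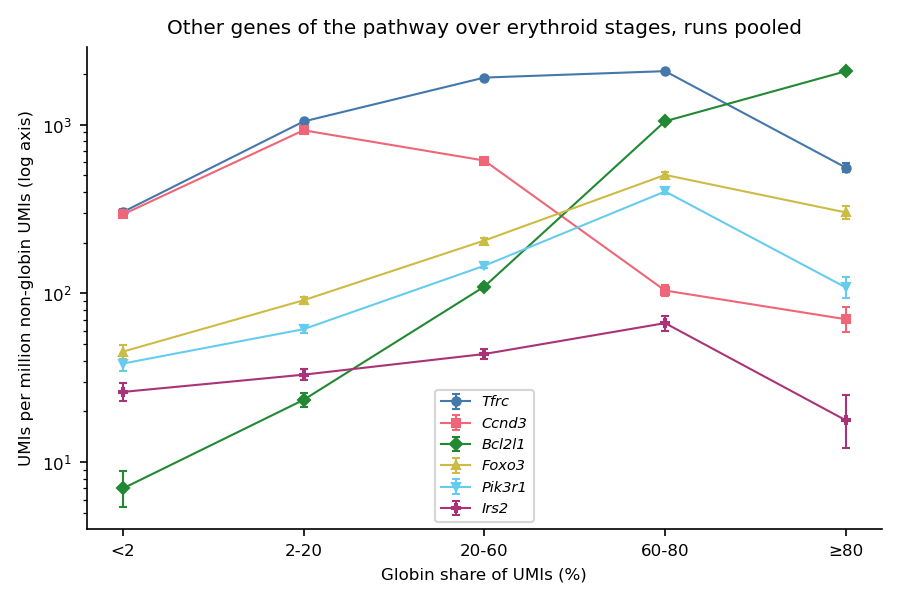
Level of 6 pathway genes in CPM without globin (y axis, log scale) over the 5 erythroid stages (x axis), pooled over runs, with 95% Poisson intervals. Bcl2l1 stands at 2070 CPM in reticulocyte-like cells and 6.99 in progenitors, while Ccnd3 is highest in early erythroblasts.

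The receptors that share JAK2 or STAT5 with Epor were scarce in erythroid cells. Of 15, 6 were measured against the other classes and all 6 were lower, where 22.2% of all genes were. These 6 reached 20 CPM in the other classes only, so their direction followed from the level minimum. The largest differences were those of Csf2ra (log2 -3.37), Csf3r (-3.13), Csf2rb (-2.89) and Il2rg (-2.34), chains of receptors for GM-CSF, G-CSF, the GM-CSF family and the interleukin-2 family. None of the 15 reached 20 CPM in the comparisons between erythroid stages. In the rest of the CIS and SOCS family, Socs4 alone was measured, at 53.4 CPM in erythroid cells and 14.6 in the others (1.36). Socs4 reached 20 CPM in erythroid cells only, so its direction also followed from the level minimum. Of 21 genes of the ligand, hepcidin and BMP axis, 20 had a row, and 3 were measured against the other classes. Smad7 (-2.33) and Smad4 (-1.43) were lower, and the iron exporter Slc40a1 was 53.6 CPM in erythroid cells and 56.1 in the others (-0.06). The ligand Epo is not analysed here.

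The genes most like Epor, Erfe and Cish in pattern were ranked among 6821 genes by Pearson correlation of the log level over the 17 stages and classes. The points share libraries and stages and are not independent, so the values are descriptions. Nearest to Epor were Nipa1 (r 0.966), Aqp1 (0.956), Mgll (0.952), Abcg2 (0.941) and Abcb6 (0.941). Nearest to Erfe were Pkhd1l1 (0.994), Slc6a20a (0.979), Plek2 (0.976), Tlcd1 (0.975) and Sh3tc2 (0.972). Cish had less close neighbours, with Serpinb6b (0.833), Abcb9 (0.828), Rnf19a (0.788), Pip5k1a (0.787) and Tusc3 (0.787).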

How the data were processed

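The values deposited by the authors were whole-number UMI counts, 1 for each gene in each cell, without normalization. Cell Ranger 5.0.0, Seurat 3.1.5 and the mm10 build are listed in the submitters' processing notes. The sources used here do not give the cell filters. The genes and lists were chosen with earlier results of these data known. Nothing ties cells to libraries, so the edgeR test planned between groups was not made, and the cells were 1 pooled sample.

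Cells were clustered in Python 3.11.15 with scanpy 1.11.5 (2000 variable genes, 30 components, 15 neighbours, resolution 1, seed 0), with 92 listed and globin genes kept out. The 35 clusters were named where at least 3 markers reached 50 CPM and a class led the 50 leading genes (ratios with 10 added). Of the 6 that stayed unnamed, 4 had a rival class that matched the first one in markers among the top 10, 1 had 2 of its 3 leading genes from another class (a rule added after leading genes were seen) and 1 had under 3 markers. Scrublet called 17 cells (0.068%), so it did not work here and no doublets were removed. The median depth of a stage was 3452 to 9899 UMIs.

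Levels are CPM, UMIs per 1000000 UMIs that are not globin, with 95% exact Poisson intervals, and shares of cells have exact Clopper-Pearson ones. Both cover counting error only, as does the limit of 3 UMIs for a count of 0. Thinned shares leave out cells under 2000 UMIs, which were 423 progenitors and 486 early, 185 mid-stage, 56 late and 8 reticulocyte-like cells. Levels were compared between stages and classes by the 2-fold rule, with a minimum of 20 CPM and 10 added, checked on simulated data. Named pathway genes were up to 4 of each list with the largest difference in erythroid cells over other classes and up to 4 in late over mid-stage erythroblasts, and other called genes were named after their values were seen. Similar genes were the 5 nearest with 50 CPM in some stage or class. Positions are from GENCODE M21 (GRCm38) and promoters from RefSeq (GRCm38.p6). The listed gene Hjv was read under its RefSeq synonym Hfe2.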

Additional observations from a re-analysis of the deposited data

How the results depend on the processing

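No paired analysis was possible because no cell can be tied to a numbered replicate of the labelled groups. Stages and classes were compared within each barcode run. Of 720 values for single genes under other settings, 683 stayed within the run-to-run SD, 37 moved, and 0 of the called ones turned direction. In early erythroblasts over progenitors, the number of genes higher, 2 as reported, was 1 with repeated barcodes left out, 1 on plain CPM, 1 with erythroid cells under 2000 UMIs left out (an alternative chosen after seeing the data), and 1 to 2 with a run left out. Pim1 was the gene lost, at 0.98, 0.88 and 0.98, and at 0.996 and 0.88 without runs 1 and 2. In mid-stage over early erythroblasts, 2 higher as reported, the number was 0 on plain CPM, 1 with stages at 5, 30, 70 and 85% globin (Cish at 0.996), and 1 to 3 with a run left out, where Epor joined without run 7 (1.03). In late over mid-stage erythroblasts, 1 higher as reported, it was 0 on plain CPM and 0 with the shifted stages, where Pim1 kept 1.34 but 1 run differed in sign. For 1 lower as reported, it was 0 with all variable genes used for clustering (Erfe at -0.97), 0 with cells kept only from 500 genes up and with mitochondrial UMIs up to 10% (-0.99), 0 relative to the median gene, 2 on plain CPM, where Epor (-1.05) joined Erfe, and 0 to 1 with a run left out. In erythroid cells over other classes, the number lower, 1 as reported, was 2 relative to the median gene and 2 with 1 added to both levels, where Stat5b joined at -1.06 and -1.07, and the number higher was 2 to 3 with a run left out, where Cish joined without run 6 (2.09). Plain CPM includes globin by construction, so later stages are lower on that scale. For the other settings the cause was not tested. Levels pooled over runs were also taken with each run left out, a choice made after seeing the data, and stand beside the levels they moved. Depth limits Socs2, Socs3 and the STAT5 genes in late cells, which rest on few UMIs.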

Other observations

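An unnamed cluster of 161 cells, led by Slfn14, Xpo7 and Tmcc2, was left out of the stages. Its median was 1492 UMIs with 15.8% globin, and its erythroid markers summed to 29730 CPM. Pim1 stood at 6061 CPM there, above each erythroid stage, from 1423 UMIs (5750 to 6384 by counting error). Epor was 251 CPM (191 to 324) and Cish 192 (140 to 256), while Erfe had 0 UMIs, which allows up to 12.8 CPM. The cluster thus held receptor RNA and the highest Pim1 level without detected Erfe at this depth. The Erfe limit lies above the 5.37 CPM of reticulocyte-like cells and the 6.53 CPM at 70 to 80% globin, so Erfe does not set the cluster apart from these. All 19 erythroid markers reached 50 CPM in the cluster. Slfn14, Xpo7 and Tmcc2 were also among the leading genes of erythroid-like clusters with median globin shares of 72.6 and 77.5%.

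Among the other unnamed clusters, Socs3 was 376 CPM in 372 cells led by Fcgr4, Cd300e and Clec4a3 and 312 in 588 cells led by H2-Eb1, H2-Aa and H2-Ab1. Pim1 was 1370 CPM in those 588 cells. Kit, the receptor for stem cell factor, named after its values were seen, was 16.5 CPM in erythroid progenitors and 110 in stem and multipotent progenitor-like cells. Gdf15, an erythroid hormone also named after its values were seen, was 1.67 to 7.51 CPM over the erythroid stages and 725 in macrophage-like cells.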
